A study of Mus musculus with 2 samples.

Results

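Nacc1 peaks on mouse chromosomes 4, 5 and 11 crowd into the distal part of each chromosome, the part farthest from the centromere. The distal parts were defined as everything from 125 Mb on chromosome 4, from 110 Mb on chromosome 5 and from 100 Mb on chromosome 11, and a peak was a member when its midpoint lay there. Of the 5942 peaks listed for the whole genome, 607 (10.2%) were members. Chromosomes 4, 5 and 11 carried 184, 234 and 189 of them. The other 482 peaks of these 3 chromosomes served as the comparison. The distal parts were chosen from the density of the same peaks, so their high density is given as a description and nothing is tested on it.

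The study comprised 1 chromatin immunoprecipitation sequencing (ChIP-seq) library made with an antibody against Nacc1 and 1 input library made without antibody, both from N2A cells, an established mouse neuroblastoma line, with no treatment or genetic change named. Chromatin was fixed in 1% formaldehyde, and 4 µg of antibody was used for the precipitation. The series' title places the experiment in a study of how transcription factors control alternative splicing. With 1 library there was no replicate, so no difference below carries a replicate error or a p-value. Intervals are at 95%, exact for medians, shares, densities and their ratios and approximate for differences. They take peaks as independent and cover counting error only, and since neighbouring peaks are not independent the true intervals may be wider.

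Nacc1, nucleus accumbens associated protein 1, is a nuclear protein with a BTB/POZ domain, through which such proteins pair with each other and bind partner proteins, and a BEN domain, which contacts DNA. It is known mainly as a transcriptional repressor and is expressed in neurons, in stem cells and in some tumours. Mouse chromosomes carry the centromere at one end and are numbered from there, so distal means toward the far telomere. As background, distal chromosomes 4 and 11 are known as gene-rich stretches of the mouse genome. Genes at the peaks were not analysed here.

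The distal parts took up 22.7% of the distance between the first and last listed peak of these chromosomes and held 55.7% of the peaks. The density was 6.47 peaks per Mb (5.96 to 7.005) in the distal parts and 1.51 (1.38 to 1.65) in the rest, a ratio of 4.28 (3.79 to 4.84). Over the 16 other autosomes it was 2.46 peaks per Mb, so the distal parts lay above that level and the rest of the same chromosomes below it. Chromosome 4 had the steepest contrast, with 6.01 peaks per Mb in its distal 30.6 Mb and 1.05 in the remaining 120.1 Mb (ratio 5.73, 4.54 to 7.24). Chromosome 11 had the densest distal part, with 8.98 peaks per Mb over 21.1 Mb, against 2.08 before it (ratio 4.31, 3.52 to 5.28). Chromosome 5 had the longest distal part and the smallest ratio, with 5.55 peaks per Mb over 42.2 Mb and 1.51 before it (3.68, 2.99 to 4.53).

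Density within the distal parts was uneven from window to window. In 1 Mb windows wholly inside the mapped span, the 93 distal windows held between 0 and 23 peaks, with a median of 6 and quartiles of 2 and 10. The 318 windows of the rest held between 0 and 13, with a median of 1 and quartiles of 0 and 2. Windows without any peak made up 11.8% of the distal windows (11 of 93) and 42.8% of the others (136 of 318). At least 10 peaks were found in 24 distal windows and in 5 of the rest, so the ranges overlapped although the medians were far apart. By chromosome, the distal medians for chromosomes 4, 5 and 11 were 3, 5 and 9 peaks per window, against 0, 1 and 2 in the rest.

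**Figure D1:**
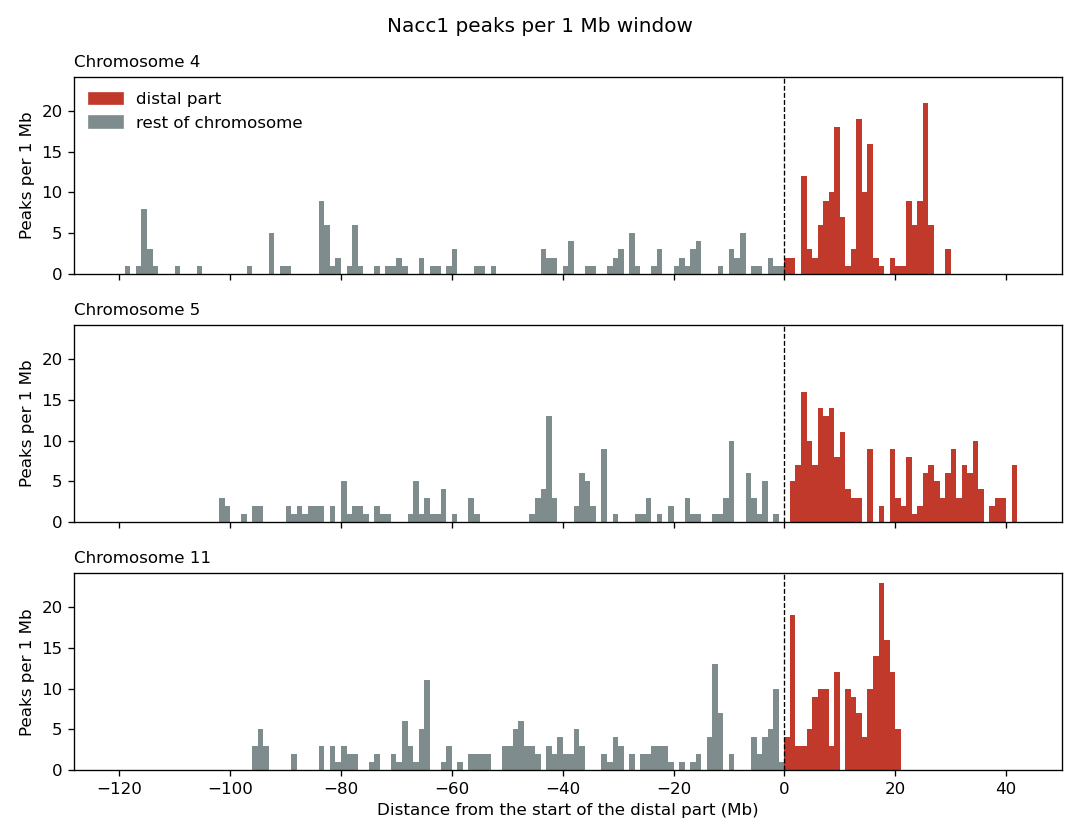
Number of Nacc1 peaks in each 1 Mb window along chromosomes 4, 5 and 11, placed by distance in Mb from the start of the distal part (dashed line); red bars are distal windows and grey bars the rest. Distal windows reach 21 peaks on chromosome 4, 16 on chromosome 5 and 23 on chromosome 11, and empty or nearly empty windows lie between the full ones.

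Density on chromosome 4 varied between windows and 5 Mb stretches, but hardly between 3 parts of equal length. These had 6.27, 5.98 and 5.78 peaks per Mb, in order from the centromere side of the distal part. In successive stretches of 5 Mb from 125 Mb on, the chromosome held 19, 45, 40, 21, 26 and 30 peaks, and the last incomplete stretch held 3. Its fullest windows were 150000001 to 151000000 with 21 peaks, 138000001 to 139000000 with 19 and 134000001 to 135000000 with 18. These 3 windows held 58 of its 184 distal peaks (31.5%). Of its 30 distal windows 4 were empty, against 6 of 42 on chromosome 5 and 1 of 21 on chromosome 11. The longest distal stretch without a peak, chosen after the values were seen, ran over 2742 kb from 151779534 to 154521497, between the fullest window and the strongest peak.

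Chromosome 5 had its densest stretch near the start of the distal part, not at its end. Its successive 5 Mb stretches from 110 Mb on held 38, 56, 21, 20, 16, 27, 35 and 12 peaks, with 9 in the incomplete last one. Divided into 3 parts of equal length, the distal part had 8.18, 3.84 and 4.62 peaks per Mb in order from the centromere side. All 3 values lay above the 1.51 before the boundary. The fullest windows all lay in the first of these parts, at 113000001 to 114000000 with 16 peaks, 116000001 to 117000000 with 14 and 118000001 to 119000000 with 14. They held 18.8% of the distal peaks of chromosome 5, a smaller share than the 3 fullest windows took on chromosome 4 or 11.

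On chromosome 11 the density was highest near the end. Its 5 Mb stretches from 100 Mb on held 34, 44, 30 and 75 peaks, with 6 in the incomplete last one, so the stretch from 115000001 to 120000000 alone carried 15 peaks per Mb. The fullest windows were 117000001 to 118000000 with 23 peaks, 101000001 to 102000000 with 19 and 118000001 to 119000000 with 16, which together held 30.7% of the distal peaks. Only 1 of its 21 distal windows had no peak.

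Over 5 Mb the boundaries were not equally sharp. In the 5 Mb just inside and just outside the boundary chromosome 4 had 19 and 5 peaks, chromosome 5 had 38 and 7, and chromosome 11 had 34 and 22. Over 10 Mb the counts were 64 and 16, 94 and 26, and 78 and 28, so the chromosomes were more alike at that length. The first members on chromosome 4 were at 125034050 to 125034533 (score 145) and 125083708 to 125084343 (score 981), and the last peaks outside were 622 and 1596 kb before the boundary, with scores of 64.65 and 63.85. On chromosome 5 the first members lay 1441 and 1454 kb inside, with scores of 63.0 and 64.1, and the last outside lay 1527 and 3641 kb before it, with scores of 58.2 and 63.1. On chromosome 11 the first members lay 380 and 417 kb inside (scores 59.3 and 116) and the last outside 903 and 1083 kb before it (scores 68.85 and 88.7).

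The score of a peak, which the rule did not use, is the caller's p-value written as −10 × log10, so that 50 stands for 1e-05. It grows with the clarity of the enrichment, but also with sequencing depth and with peak width. Distal peaks scored 82.7 at the median (77.8 to 87.4) and 61.9 and 154 at the quartiles. The remaining peaks of the same chromosomes scored 74.6 at the median (69.2 to 80.7) and 56.9 and 122 at the quartiles. The difference of 8.07 had an interval of 0.32 to 15.2, which barely excludes 0. Without chromosome 4 it was smaller, at 4.10, with an interval that includes 0 (-4.29 to 11.7).

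Taken singly, only chromosome 4 had a score difference whose interval excludes 0, with medians of 85.6 and 67.2 and a difference of 18.4 (4.25 to 31.8). That interval included 0 when the boundary was moved 5 Mb toward the centromere (15.6, -0.61 to 31.0), for scores of 100 or more (26.3, -17.4 to 74.8) and at or above the median score of the list (38.6, -12.6 to 62.4). On chromosome 5 the medians were 81.55 and 78.4, a difference of 3.13 (-8.18 to 15.1). On chromosome 11 they were 82.7 and 76.8, a difference of 5.85 (-6.95 to 17.3). The difference between chromosomes was not tested, and the intervals of the 3 chromosomes overlap. Set against the 16 other autosomes, whose median score was 82.5 (80.1 to 84.3), the distal peaks lay at that level and the rest of chromosomes 4, 5 and 11 lay under it.

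**Figure D2:**
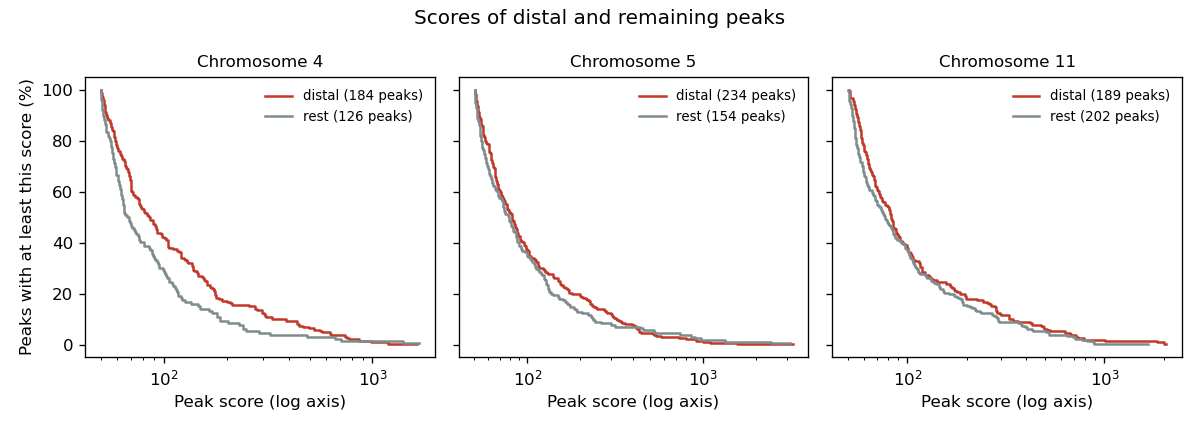
Share of peaks (%) with at least a given score, on a logarithmic score axis, for the distal part (red) and the rest (grey) of each chromosome. At a score of 100 the curves are farthest apart on chromosome 4, with 42.4% of distal peaks and 29.4% of the rest; at 200 the shares are 17.4% and 9.52% on chromosome 4, 19.2% and 13.0% on chromosome 5, and 18.0% and 15.8% on chromosome 11.

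Strong peaks belong to the list from whose density the parts were chosen, so their crowding is again only a description. Scores of 100 or more belonged to 237 distal peaks (39.0%) and to 166 of the rest (34.4%), against 38.4% of all listed peaks. For a score of at least 200 the numbers were 111 (18.3%, 15.3% to 21.6%) and 64 (13.3%, 10.4% to 16.6%), against 15.7% of the list. For at least 500 they were 35 (5.77%) and 24 (4.98%), against 4.46%. The distal shares thus lay close to those of the whole list at each threshold. The density ratio between distal parts and rest was 4.85 (3.96 to 5.96) for peaks scoring 100 or more, 5.90 (4.30 to 8.15) for 200 or more and 4.96 (2.87 to 8.71) for 500 or more. The ratio of 4.28 over all peaks lies inside the first and last of these intervals and just under the other. On chromosome 4 the ratio was 8.27 (5.52 to 12.6) at 100 and 10.5 (5.24 to 22.3) at 200.

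The strongest peaks lay apart from each other on chromosomes 4 and 5, while on chromosome 11 the top pair shared the fullest stretch. On chromosome 5 the strongest, at 120744082 to 120745071, had the highest score of the whole list, 3212, with its nearest neighbour 12.2 kb away. The next on chromosome 5 were at 113470277 to 113470873 (score 1550), 144467072 to 144467816 (1095), 152050922 to 152052150 (998) and 116941378 to 116942260 (907). The first 2 lie in windows of 11 and 16 peaks.

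On chromosome 11 the strongest peaks were at 117037680 to 117038520 (score 2053) and 116521604 to 116523141 (2009), both in the 5 Mb stretch of that chromosome with the most peaks. They were followed by 101990313 to 101991754 (1854), 117342199 to 117344341 (1006) and 106445326 to 106446181 (787). The peak at 117342199 was also the widest of all distal peaks, at 2143 bp, and the one at 116521604 was the second widest of chromosome 11, at 1538 bp.

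Chromosome 4 had no distal peak among the 20 highest scores of the list. Its strongest, at 155271278 to 155272423, had a score of 1640 and lay 244 kb from its nearest neighbour, in the incomplete last stretch of the chromosome. The next were at 134328918 to 134329596 (1186), 125083708 to 125084343 (981), 149163932 to 149164933 (861) and 138431898 to 138432823 (772). The widest were the 1570 bp peak at 138423706 to 138425275 (score 738), 6.62 kb from the fifth strongest, and a 1295 bp peak at 139459786 to 139461080 (score 573). On chromosome 5 the widest were not among its 5 strongest, at 112835181 to 112836516 (1336 bp, score 421) and 125744292 to 125745543 (1252 bp, score 303). By score they ranked 343 and 546 in the whole list. Of the 100 highest scores in the list, 13 were distal peaks of these chromosomes and 11 lay in their rest, where the strongest reached 1670 on chromosome 4, 3100 on chromosome 5 and 1663 on chromosome 11.

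Over all scores, distal peaks were wider than the rest on chromosomes 4 and 11. The median width was 442 bp (428 to 462) for distal peaks and 382.5 bp (372 to 401) for the rest, a difference of 59.5 bp (36.3 to 82.1). On chromosome 4 it was 464 bp against 349 bp, a difference of 115 bp (73.4 to 145), and on chromosome 11 it was 469 bp against 393 bp, a difference of 76.0 bp (36.4 to 106). On chromosome 5 the medians were 419 and 410.5 bp, a difference of 8.5 bp (-33.6 to 45.1). Peaks of the other 16 autosomes had a median of 426 bp (421 to 432), which overlaps the distal interval and lies above that of the rest.

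Score and width were related to a like degree on both sides, with a Spearman's rho across peaks of 0.72 over the 607 distal peaks and 0.73 over the 482 others, given as a description since both come from the same reads. Widths were therefore also compared among peaks of like score, a comparison chosen after the widths had been seen. For scores of 50 to 60 the median width was 349 bp in the distal parts and 319 bp in the rest. For scores of 60 to 100 the medians were 407 and 372.5 bp, for 100 to 200 they were 529.5 and 468 bp, and from 200 on they were 709 and 637 bp. The differences of 30 bp (10.4 to 43.6), 34.5 bp (12.4 to 54.0), 61.5 bp (31.9 to 98.0) and 72.0 bp (0.55 to 161) all had intervals above 0. At like score, peaks of the other 16 autosomes had medians of 333, 398, 518 and 683 bp, each between the distal and the remaining value.

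**Figure D3:**
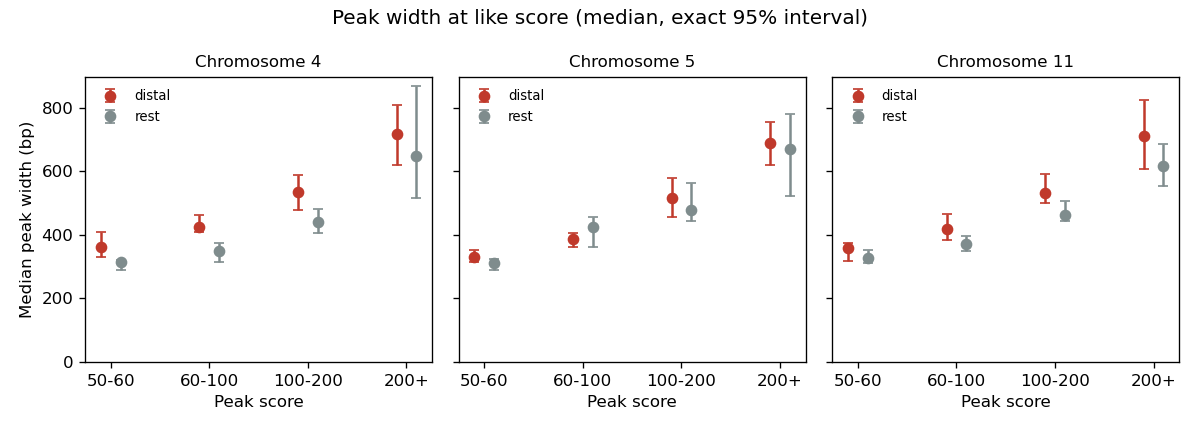
Median peak width in bp, with its exact 95% interval, for distal (red) and remaining (grey) peaks in 4 ranges of score on chromosomes 4, 5 and 11. Distal medians are higher in all 4 ranges on chromosomes 4 and 11, while on chromosome 5 the distal median is lower for scores of 60 to 100 (387 against 424 bp).

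By range of score, this difference was clearest on chromosomes 4 and 11. On chromosome 4 the distal peaks were wider by 46.0, 74.0, 93.0 and 70.5 bp in the 4 ranges of score, the last from only 12 peaks in the rest and with an interval of -171 to 230. On chromosome 11 the differences were 32.0, 48.5, 71.0 and 96.5 bp, of which the first and last had intervals that include 0. On chromosome 5 they were 17.5, -37.0, 39.0 and 18.0 bp, and all 4 intervals include 0. For all chromosome 5 peaks scoring 100 or more, the median widths were 607 bp (distal) and 532 bp (rest). The interval of that difference, 2.08 to 134 bp, excludes 0. Those peaks were not matched in score, and their score difference was 45.1 (-17.1 to 96.0). Over 5 Mb stretches with at least 5 peaks, the median width ranged from 407 to 496 bp in the 6 distal stretches of chromosome 4 and from 307 to 436 bp in its 11 other stretches, so the ranges overlapped only slightly. On chromosome 11 the 4 distal stretches ranged from 429 to 493.5 bp and the 17 others from 345 to 489 bp. Nearly all of the distal range thus lay inside the other, but only through stretches of 445 and 489 bp, from 11 and 7 peaks. The remaining others lay under all distal stretches. Peaks covered 3.05 kb per Mb in the distal part of chromosome 4 against 0.40 before it, 4.51 against 0.93 on chromosome 11 and 2.60 against 0.86 on chromosome 5. The widest peaks of the rest add to its coverage. They were of 9350, 5779 and 4284 bp on chromosome 5 (scores 57.2, 68.5 and 73.25) and of 4209 bp on chromosome 11 (score 144).

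Neighbouring peaks were more frequent in the distal parts, where more peaks share the space. Since the parts were chosen for their density, the shares of peaks with a neighbour are given as a description. Another listed peak lay within 10 kb of 222 distal peaks, or 36.6% (32.7% to 40.5%), and of 96 of the rest, or 19.9% (16.4% to 23.8%), against 28.5% of the whole list. The difference was 16.7 percentage points (11.2 to 21.9). It had the same direction on chromosome 4 (33.2% and 14.3%), chromosome 5 (40.6% and 26.0%) and chromosome 11 (34.9% and 18.8%). The median distance to the nearest peak was 20.5 kb for distal peaks and 73.0 kb for the rest. Within 1 kb the shares were 10.0% (7.77% to 12.7%) and 6.64% (4.59% to 9.24%), and within 50 kb they were 69.0% and 42.9%.

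Among windows of like crowding the order of the shares was not fixed. In windows of 1 to 4 peaks a neighbour within 10 kb was found for 7.14% of 84 distal peaks and 10.5% of 296 others. In windows of 5 to 9 peaks the shares were 35.8% of 193 (29.0% to 43.0%) and 27.1% of 129 (19.7% to 35.7%), and in windows of 10 to 14 peaks they were 39.0% of 182 (31.9% to 46.5%) and 52.6% of 57 (39.0% to 66.0%). Those 57 peaks came from only 5 windows, and the 182 distal peaks from 16. The intervals overlap in each of these classes. Windows of 15 or more peaks occurred only in the distal parts, where 8 such windows held 148 peaks, 51.4% of them with a neighbour.

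**Figure D4:**
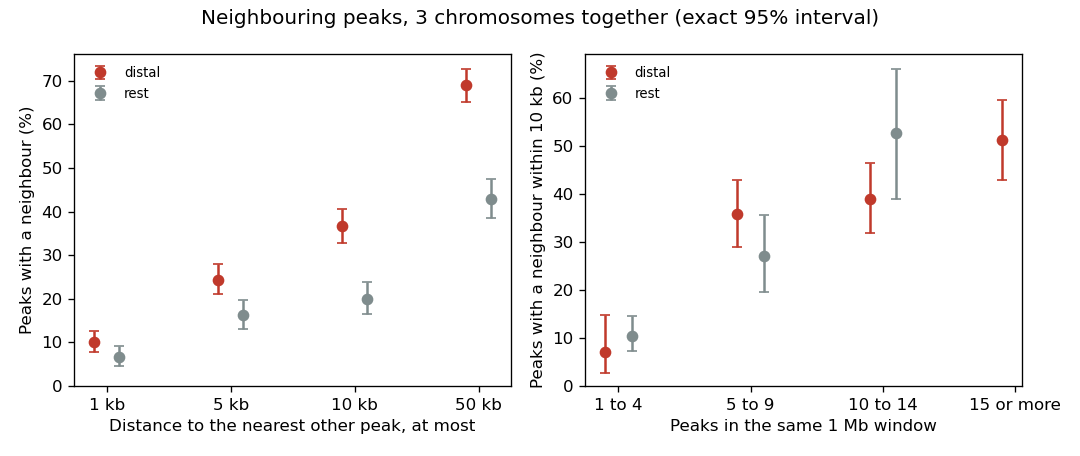
Left, share of peaks (%) whose nearest other peak lies within 1, 5, 10 or 50 kb, and right, share with a neighbour within 10 kb by the number of peaks in the same 1 Mb window, for distal (red) and remaining (grey) peaks of the 3 chromosomes with exact 95% intervals. Distal shares are higher at every distance, whereas at like crowding the intervals of both sides overlap.

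Strong distal peaks had another strong peak nearby in about the same share of cases as strong peaks of the rest. Of the 237 distal peaks with a score of at least 100, 97 (40.9%) had any neighbour within 10 kb but 49 (20.7%, 15.7% to 26.4%) had one that itself scored at least 100. In the rest the corresponding numbers were 50 (30.1%) and 32 (19.3%, 13.6% to 26.1%) of 166. The shares with a strong neighbour differed by 1.398 percentage points (-7.05 to 9.47), while strong peaks were 4.85 times denser in the distal parts. In the rest, peaks with a neighbour had a median score of 109 (79.0 to 132) and those without 71.3 (65.5 to 76.3). In the distal parts these medians lay closer together, at 89.9 (81.8 to 100) and 78.4 (73.2 to 85.1).

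The 222 distal peaks with a neighbour formed 91 groups, of which 61 were pairs, 24 held 3 peaks and 6 held 4 or more. In the rest there were 40 groups, with 28 pairs and 3 groups of 4 or more. The largest distal group of chromosome 11 held 6 peaks over 15.2 kb at 101978332 to 101993542 and included the 1854 peak, while its lowest score was 56.8. On chromosome 4 the largest also held 6 peaks, over 22.3 kb at 150118763 to 150141053, with scores from 61.9 to 384. On chromosome 5 it held 4 peaks over 16.3 kb at 116652319 to 116668572, with scores from 50.7 to 572. Each of these groups therefore joined peaks close to the lowest listed score of 50 with peaks several times higher.

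To place the 3 chromosomes among all 19 autosomes, the final 20% of each chromosome's span was compared with its first part. The 3 chromosomes had been chosen for their dense distal parts, and the final 20% of chromosome 4 (182 peaks) is nearly its distal part (184), so their place in density is a description of that choice. Chromosomes 4 and 11 had the highest density ratios, 5.69 and 4.32, followed by chromosome 8 with 4.00 and chromosome 16 with 3.09. Chromosome 5 ranked 11 of 19 with a ratio of 1.77; the densest stretch of its distal part lies before its final 20%. Over the other 16 autosomes the ratio ranged from 1.00 to 4.00 with a median of 1.79, and it was above 1 on 15 of them. A denser end was therefore common among the autosomes that were not chosen.

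In this comparison, the ends of chromosomes 4 and 11 also had the highest width differences, at 113.5 and 76.0 bp, above a range of -26.5 to 38.0 bp over the other 16 autosomes. At like score, as a mean over the 4 ranges weighted by the number of peaks at the end, the difference was 73.7 bp on chromosome 4, the highest of 19. It was 44.0 bp on chromosome 11, which ranked 4, also behind chromosomes 17 (55.8 bp) and 1 (48.9 bp). Chromosome 5 ranked 7, with 29.6 bp. Over the other 16 autosomes this difference ranged from -32.2 to 55.8 bp with a median of 23.0 bp, and it was above 0 on 11 of them. The score difference ranked lower, with 16.1 on chromosome 4, 7.23 on chromosome 11 and 2.47 on chromosome 5, inside the range of -7.93 to 20.2 over the other autosomes. In the share of peaks with a neighbour, the final 20% exceeded the first part by 19.5, 17.4 and 14.1 percentage points on chromosomes 4, 11 and 5, inside the range of -14.8 to 22.1 over the others.

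**Figure D5:**
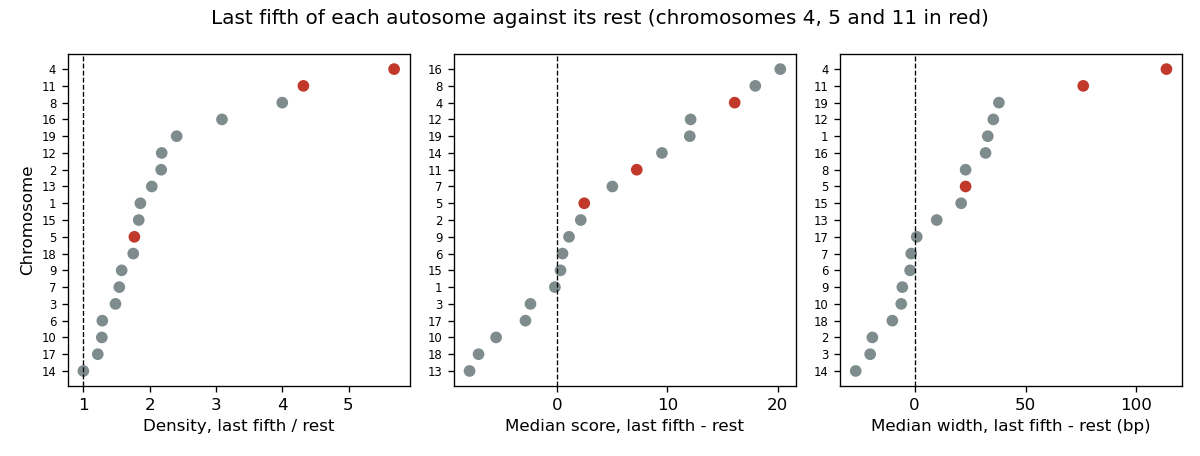
Density ratio, difference in median score and difference in median width (bp) between the final 20% of each autosome's span and its first part, 1 point per chromosome, with chromosomes 4, 5 and 11 in red and the dashed line at no difference. Chromosomes 4 and 11 lead in density ratio (5.69 and 4.32) and in width (113.5 and 76.0 bp) but not in score.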

How the data were processed

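The peak list of the Nacc1 ChIP library was analysed; the input library was not analysed here. The build is mm9 and the tools named are MACS 1.4, SAMtools, Bowtie2 and CASAVA 1.8, per the submitters' processing notes. Parameters, mapped read numbers and the use of the input as control are not stated there, so depth is unknown. The deposited score follows the MACS 1.4 format (−10 × log10 of the p-value of a peak) and was used only within this list.

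Positions were converted to 1-based mm9 coordinates. No mm9 sequence or annotation was used here, so no gene is named. Members and the measures compared were chosen with earlier results of these data known. A span is the distance between the outermost listed peaks of a chromosome. Neighbours lie within 10 kb, edge to edge. Medians carry exact order-statistic intervals, shares Clopper-Pearson intervals, density ratios exact conditional intervals and differences square-and-add intervals, all at 95%. Named regions are, in each distal part, the 5 highest scores, the 2 widest peaks, the 3 fullest windows and the largest group, plus the 2 peaks on either side of the boundary. The intervals of the density ratio and of the score difference, and the neighbour counts, were checked on simulated lists of independently placed peaks. Width and neighbour share intervals were not checked this way. Alternatives were score thresholds, merging within 1 kb, boundaries moved by 5 Mb, leaving out the fullest windows or a chromosome, other distances and windows, and widths at like score. SciPy 1.17.1, pandas 2.3.3 and NumPy 2.4.6 were run under Python 3.11.15, and plots drawn with Matplotlib 3.10.9.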

Additional observations from a re-analysis of the deposited data

How the results depend on the processing

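Density ratios, window counts and neighbour shares largely follow from the choice of dense parts, so the direction they kept is only a description. Over 126 recomputed values of the differences and ratios, for the 3 chromosomes together and each alone, 122 kept their direction. The exceptions were the score difference on chromosome 11 at or above the median score (-11.85) and with the boundary 5 Mb nearer the distal end (-0.31), the width difference on chromosome 5 at like score (-1.14), and the neighbour share of chromosome 4 in windows of 5 to 9 peaks, which was 12.6 percentage points lower in the distal part (difference -12.6, -31.0 to 6.16). For the chromosomes together, a score of at least 100 gave a score difference of 17.5, a width difference of 83.5 bp, a neighbour difference of 1.398 percentage points, a density ratio of 4.85 and a difference of 1.997 peaks per 1 Mb window instead of 4.96; fewer peaks enter, and the threshold selects on the score. At or above the median score the score difference was 19.5, the neighbour difference 10.6 points and the density ratio 4.91. Without chromosome 4 the density ratio was 3.74, and without chromosome 5 the width difference was 91.0 bp. The neighbour difference was 26.1 points within 50 kb, and its interval included 0 within 1 kb (3.41, -0.05 to 6.78), in windows of 5 to 9 peaks (8.62, -2.26 to 18.98) and at a score of at least 100 (-7.05 to 9.47). The cause of these changes was not tested. The interval of the score difference included 0 at both score thresholds (17.5, -9.16 to 64.3, and 19.5, -4.73 to 37.9), without chromosome 4, and with the boundary moved 5 Mb to either side (7.345, -0.58 to 14.7, and 5.13, -2.93 to 11.9). No paired analysis was possible because there is 1 ChIP library. With depth unknown, the number of weaker sites that escaped the caller cannot be given.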
